A study of Mus musculus with 6 samples.

Results

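Dnajc11 is the gene of a mitochondrial J-protein, and its RNA was followed here in mouse sperm through 1 catalogue probe of a two-colour microarray, A_51_P398235, whose accession NM_172704 names Dnajc11 in RefSeq. It is 1 of 45 genes with a known symbol among 60691 probes, and the probe is printed at 10 spots on each of 6 arrays. The gene was selected on its measured IP ratio and RNA level, both lower on the arrays of cadmium-treated males, so every difference between the groups given for it is a description of a chosen case and carries no test.

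The sperm came from male C57BL/6 mice. One group drank control water and the other received 100 mg/L cadmium chloride (CdCl2, "Cd" below) in drinking water from 5 weeks of age for 10 weeks, and sperm were taken at 15 weeks. Each group had 3 arrays, which the labels call biological replicates. The labels do not say whether sperm of several males were pooled on an array. On every array the immunoprecipitated (IP) RNA of 1 sample was labelled with Cy5 and the supernatant RNA of the same sample with Cy3. What the immunoprecipitation was directed at is not stated in the labels. The dyes were not described as swapped on any array. A dye effect and a fraction effect therefore cannot be told apart, either within an array or by comparing arrays.

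J-proteins carry a J domain, which stimulates the ATPase of partner Hsp70 chaperones and directs them to their substrates. The product of Dnajc11 sits at the mitochondrial outer membrane and associates with the MICOS and SAM complexes, which together bridge the outer and inner membranes and keep the cristae in order. In sperm the mitochondria are wrapped around the flagellum in the midpiece sheath. Of 14 genes listed for that bridging machinery, Dnajc11 is the only one with a named probe here, and the same holds for 27 listed J-proteins and their chaperone partners, so its partners could not be described. No sequence of the probe, promoter or protein was used here.

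The Dnajc11 probe was well above background in both channels at all 60 spots, and 0 spots were saturated. The scanner software flagged 4 spots as outliers (3 on control and 1 on Cd arrays), and the other 56 are used below. The IP channel gave median pixel signals of 77 to 181 over a local background of 13 to 19. The supernatant channel was much dimmer, with median signals of 30 to 58 over a local background of 11 to 17. The spread between spots was larger in the supernatant on every array but control replicate 2. The supernatant coefficient of variation between spots of an array was 5.31% to 22.6%, against 4.63% to 9.14% in the IP channel.

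The IP (Cy5) signal of Dnajc11 exceeded its supernatant (Cy3) signal on every array. Its processed IP intensity (background-subtracted and dye-normalized, in linear units) was 1383 ± 120, 1858 ± 157 and 2009 ± 92.9 on control arrays 1, 2 and 3 (mean ± SD over 10, 8 and 9 spots). It was 1249 ± 114, 1436 ± 93.6 and 1350 ± 68.9 on Cd arrays 1, 2 and 3 (over 10, 9 and 10 spots). Control replicates 2 and 3 were the bright arrays, whereas control replicate 1 lay inside the range of the Cd arrays, so these intensities overlapped between the groups.

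In the supernatant the processed intensity was 231 ± 41.1, 235 ± 12.5 and 288 ± 65.2 on the control arrays. It was 361 ± 33.3, 290 ± 40.7 and 257 ± 39.5 on the Cd arrays. Cd replicate 1 was the highest of the 6, and Cd replicate 3 lay within the control range. The IP signal made up 85.7%, 88.7% and 87.5% of the summed processed signal in control, against 77.5%, 83.2% and 84.0% in Cd. The RNA level used below, the log2 of that sum, is thus mostly the IP signal read again. A lower level and a lower ratio are not separate pieces of evidence for this probe.

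**Figure D1:**
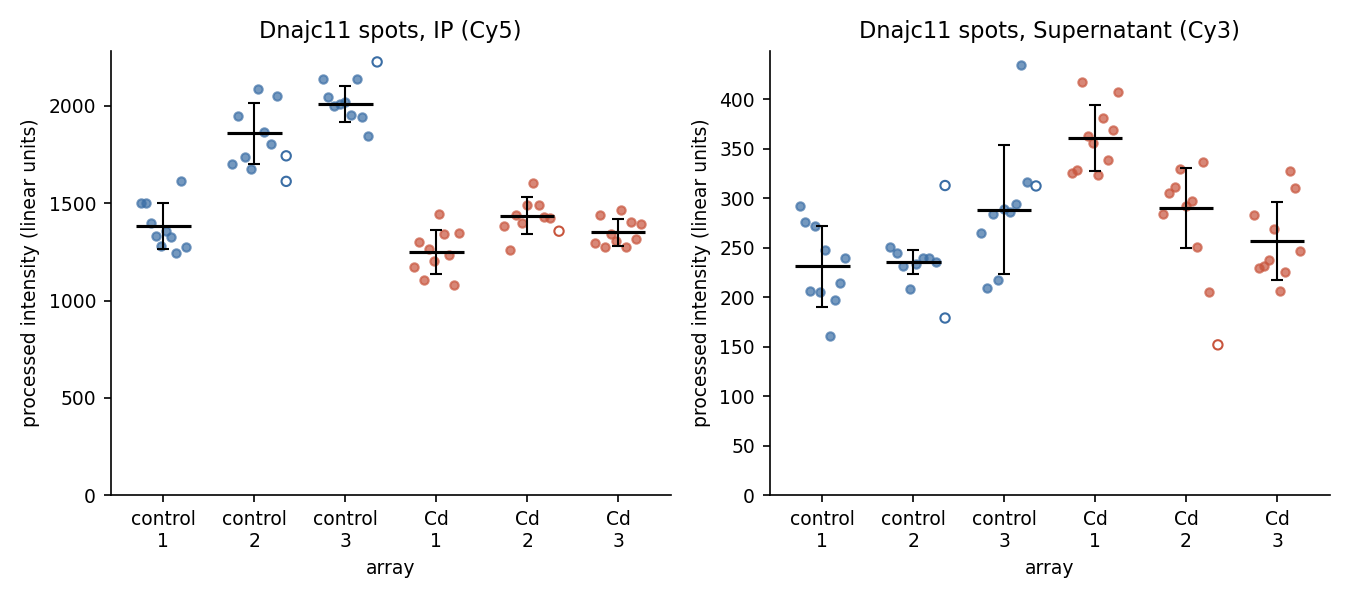
Processed intensity in linear units of the Dnajc11 spots on each array, IP channel on the left and supernatant channel on the right. Filled points are spots used, open points are the 4 outlier-flagged spots, horizontal lines are means and bars are the SD over spots; control replicate 1 lies among the Cd arrays in the IP channel, and Cd replicate 1 is highest in the supernatant.

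The IP over supernatant ratio was taken as log2 of IP over supernatant intensity minus each array's median over all probes. In control sperm it was 2.57, 3.00 and 2.82, with a mean of 2.80 ± 0.21 (SD, n = 3). This is 6.94 times the median probe of the array. In Cd sperm it was 1.80, 2.36 and 2.33, with a mean of 2.16 ± 0.32 (SD, n = 3), or 4.47 times the median probe. Cd replicate 1 was the lowest array, and replicates 2 and 3 lay close together, with the higher of them 0.21 below the lowest control array. The difference, Cd minus control, was -0.63 (limma SE 0.27), which is 35.6% lower.

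The 3 Cd arrays lay below the 3 control arrays in this ratio. That order was the reason for choosing the gene and is read no further: 5.15% of the 23788 probes in the ratio comparison showed it too. Over all of them limma called 0 probes lower and 1 higher in Cd at an adjusted p of 0.05, which is 0% and 0.0042%. At an unadjusted p under 0.05 there were 565 lower and 629 higher. The called probe is not Dnajc11.

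The normexp setting moved the size of this difference most. With it the ratio differed by -0.18 (limma SE 0.13) and the groups overlapped. Its offset of 50 by construction shrinks the differences of dim probes, but the setting also replaced the dye normalization with a loess fit. The parts of these steps were not told apart. Background-subtracted signals without dye normalization gave -0.59 (limma SE 0.28), without overlap. Centred on 14 spike-in probes it differed by -0.50 (limma SE 0.36) and overlapped too. The median difference over all probes there was 0.18, and Dnajc11 differed by -0.67 relative to it. That -0.67 equals the value relative to the median with the main centring by construction, since centring subtracts a constant from each array. The ratio remained lower in Cd in all 16 alternatives run, and the 3 Cd arrays stayed below the 3 control arrays, or the arrays left of them, in 14. Leaving out arrays and adding the replicate block could not create an overlap or change the direction, since they reused the same array values. Those runs add no support for the order. The settings that overlapped, normexp and spike-in centring, changed the array values.

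The 10 spots of a probe lie at the same places on every array, so the ratio could be set out place by place. The Cd mean was below the control mean at 10 of 10 places, by 0.36 to 0.93 on the log2 scale. At 6 of the 10 places every Cd spot lay below every control spot. In processed intensity, before centring or scaling, the IP signal had a lower Cd mean at 10 of 10 places, 4 of them without overlap, and the supernatant had a higher Cd mean at 10 of 10. Pooled over places the ranges overlapped, since control spots reached down to 2.15 and Cd spots up to 2.83. Of 29 Cd spots 15 lay below the lowest control spot, and of 27 control spots 13 lay above the highest Cd spot. These counts rest in part on leaving out the outlier-flagged spot of Cd replicate 2, at place 3, whose ratio was 3.20. With all 60 spots, an alternative added after seeing the data, 1 of 30 control spots lay above the highest Cd spot and 15 of 30 Cd spots below the lowest control spot. The difference at place 3 was then -0.49, against -0.93 without that spot, and 5 places had no overlap. The Cd mean remained below the control mean at 10 of 10 places, by 0.36 to 0.85. Spots of an array share 1 RNA sample and are not replicates of the treatment.

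**Figure D2:**
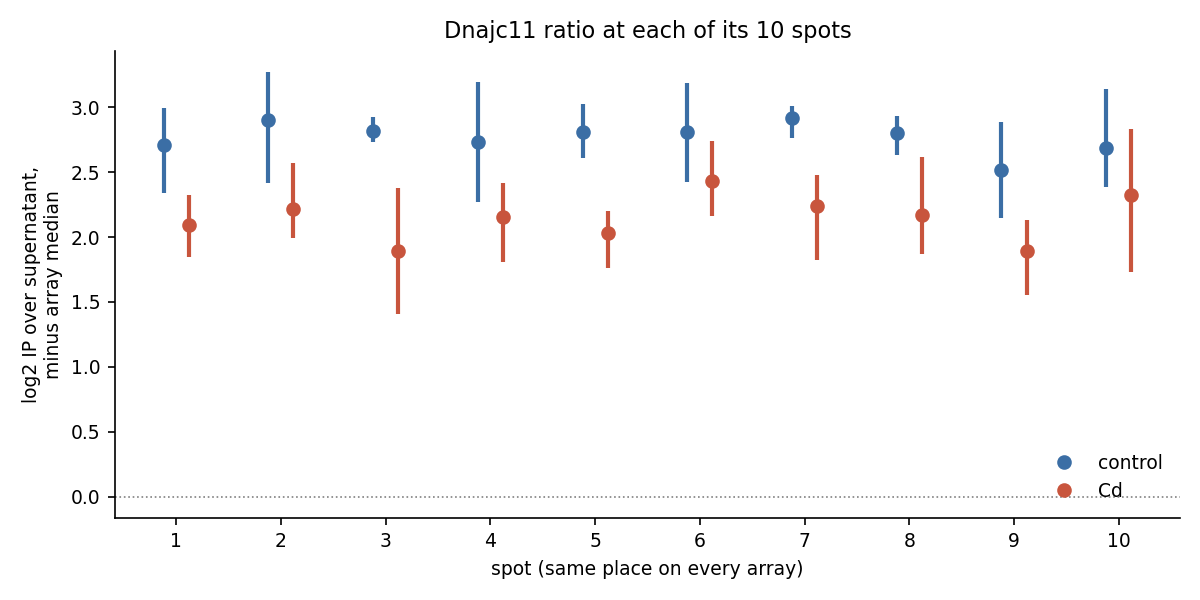
Centred log2 IP over supernatant ratio of Dnajc11 at each of its 10 spots, with points for the mean over the arrays of a group and lines from the lowest to the highest array. The Cd mean is below the control mean at 10 of 10 places, and the lines overlap at some of them.

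The SD of the ratio between spots of an array was 0.24 when pooled over the 6 arrays, close to the SD of 0.27 between arrays of a group. Averaging the spots left a standard error of 0.04 to 0.11 per array. The scanner software's own error for a single spot averaged 0.27 to 0.35 on the log2 scale. The probe was not among the most precise: 18 of the 27 named genes in the ratio comparison had a smaller spread between spots. Tm9sf1, a transmembrane 9 family protein, had the smallest at 0.06.

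The channel in which the lower ratio lay depended on the scaling. With each channel set against its own array it lay in the IP signal. After subtracting each array's 75th percentile, the log2 IP signal was 2.22, 2.04 and 2.08 in control and 1.32, 1.54 and 1.58 in Cd. The highest Cd array lay 0.46 below the lowest control array. The means were 2.11 ± 0.09 and 1.48 ± 0.14 (SD, n = 3 each), a difference of -0.63 (limma SE 0.24). Of the 30518 probes in this comparison 8.37% had their Cd arrays below their control arrays in the IP signal.

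The scaled log2 supernatant signal was -0.47, -0.94 and -0.75 in control and -0.48, -0.77 and -0.82 in Cd. The groups overlapped over nearly their whole range, and both extremes were control arrays. The difference was 0.03 (limma SE 0.23), and its sign changed with the setting, from -0.08 when control replicate 2 was left out to 0.27 with no scaling between arrays. In those unscaled processed signals both channels had a part in the lower ratio, with the IP signal differing by -0.36 (limma SE 0.30) and the supernatant by 0.27 (limma SE 0.31), and both overlapped between the groups.

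The scaled log2 level was 1.29, 1.08 and 1.15 in control and 0.58, 0.70 and 0.73 in Cd. Again the lowest control array lay above the highest Cd array, here by 0.35. The means were 1.18 ± 0.11 and 0.67 ± 0.08 (SD, n = 3 each), a difference of -0.50 (limma SE 0.18), or 29.5% lower. In this level 8.87% of the 30518 probes had this order, and 0.963% of the 23788 probes in the ratio comparison had it in both ratio and level. In whole sperm samples, fewer cells that hold an RNA and less of it per cell cannot be told apart.

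The size of the difference depended on the steps between the scanner and the scaled value. In background-subtracted scanner units, before any dye normalization, the IP signal was 61.4, 116 and 137 in control, against 105, 118 and 89.3 in Cd. Control replicate 1 was the lowest and control replicate 3 the highest of the 6. The group means were 105 ± 38.9 and 104 ± 14.5 (SD, n = 3 each), so there was no separation at this step. The supernatant signal at the same step was 13.6, 13.4 and 16.6 in control and 29.7, 15.3 and 16.9 in Cd. Its means were 14.5 ± 1.79 and 20.7 ± 7.89 (SD, n = 3 each), 1.42 times as high in Cd, with Cd replicate 1 far above the rest and the groups overlapping. In scanner units the group means thus differed in the supernatant and not in the IP signal. The linear Cy5 factor of the scanner software then multiplied control replicate 1 by 21.3 and the other arrays by 12.0 to 16.2. After this factor and the lowess term of the dye normalization the means were 1750 ± 327 and 1345 ± 93.5, still overlapping.

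The groups came apart in the IP signal when each array was set against its own other probes. Left without dye normalization but scaled to the array's 75th percentile, the log2 IP signal was 1.22, 1.38 and 1.41 in control and 0.70, 0.99 and 0.94 in Cd. These did not overlap and differed by -0.46 (limma SE 0.21). The level without dye normalization differed by -0.21 (limma SE 0.22) and overlapped. With no scaling between arrays the level differed by -0.27 (limma SE 0.26) and overlapped. With no scaling the median difference over all probes was 0.29 in the IP signal and 0.24 in the level, against 0.02 and -0.001 in the scaled values. Relative to that median, Dnajc11 differed by -0.66 in the IP signal and -0.50 in the level with no scaling. These equal the values relative to the median in the scaled data by construction, since scaling subtracts a constant from each array. Without dye normalization the differences relative to the median were -0.62 and -0.42. With normexp the level differed by -0.16 (limma SE 0.08) and the IP signal by -0.22 (limma SE 0.11).

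**Figure D3:**
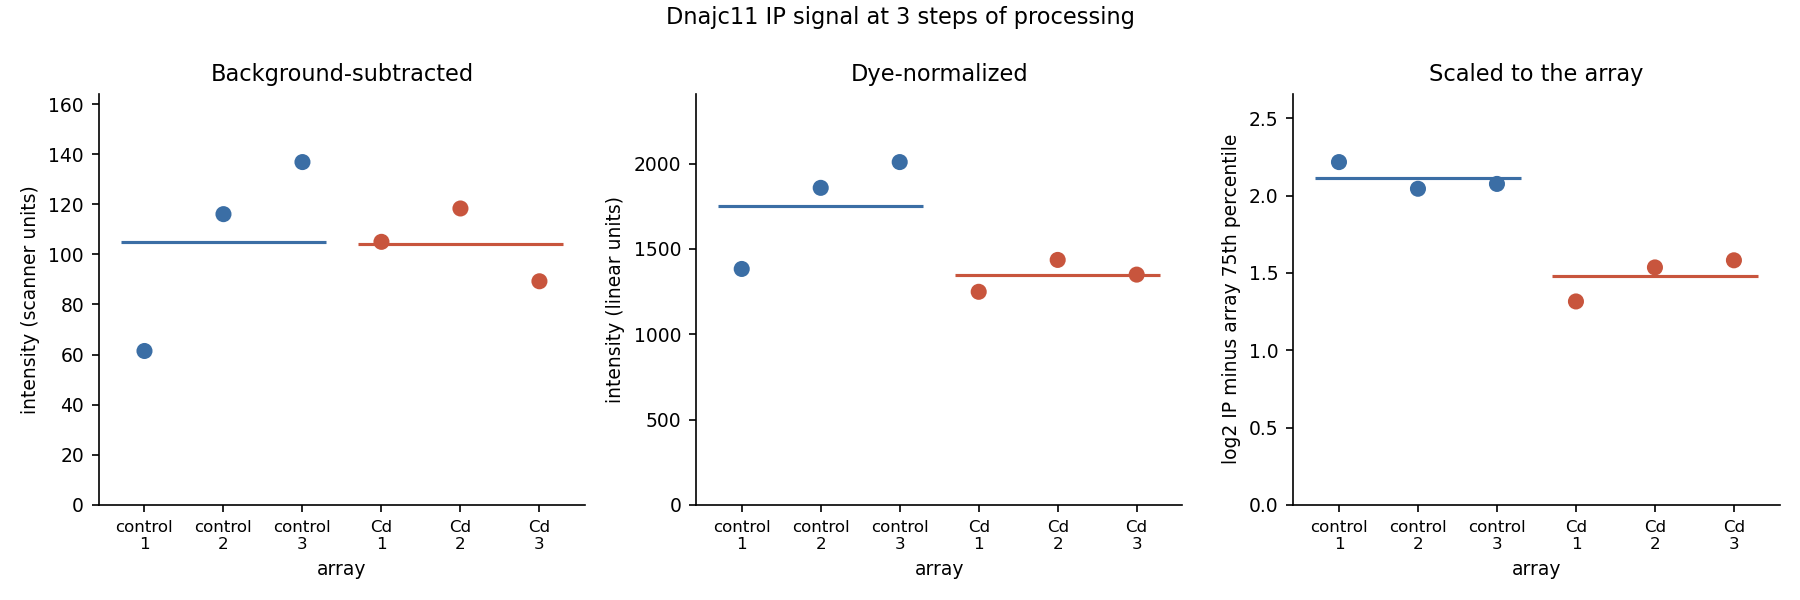
Dnajc11 IP signal on each array at 3 steps: background-subtracted in scanner units, dye-normalized in linear units, and as log2 minus the array's 75th percentile. Points are arrays and lines are group means; the groups overlap in the first and second panels (means of 105 and 104, then 1750 and 1345) and separate in the third.

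Cd arrays were on average brighter than control arrays in both channels. The median unscaled difference over the probes compared was 0.29 in the IP signal and 0.24 in the supernatant. The share of probes well above background in the supernatant was 35.1% to 44.0% in control and 45.6% to 49.8% in Cd. In the IP channel it was 28.2% to 44.8% and 43.7% to 49.3%, which overlap. The control arrays were scanned together and the Cd arrays in another scan, and the scan and the treatment cannot be told apart. The log2 signal of the 5′ minus the 3′ mouse Gapdh control probe in the IP channel, a possible sign of RNA integrity, was -1.43 ± 0.05 on control and -1.86 ± 0.04 on Cd arrays (SD, n = 3 each). In the supernatant it was -0.37 ± 0.21 and -0.66 ± 0.12. All 3 Cd arrays lay below the control arrays in both channels, and the part of this in the Dnajc11 values was not tested.

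**Figure D4:**
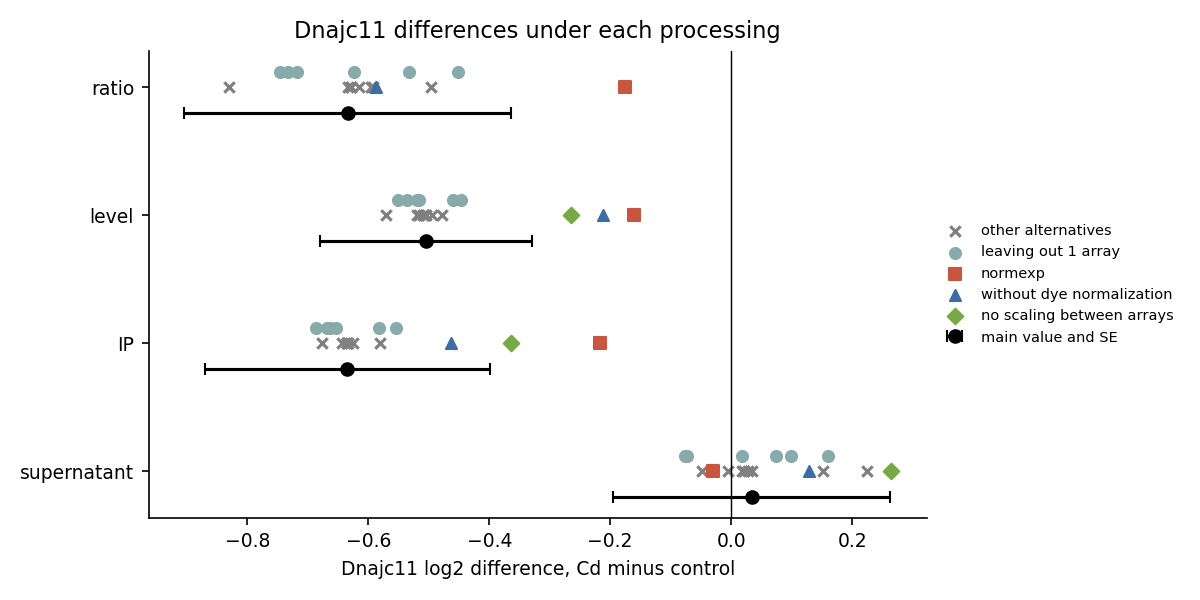
Dnajc11 log2 difference, Cd minus control, for the ratio, the level and the scaled IP and supernatant signals. Black points are the values reported with their limma SE, and the other symbols are the same difference under each alternative; ratio, level and IP differences are below 0 throughout and the supernatant differences lie on both sides of 0.

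Few probes of like signal in the ratio comparison had as high a ratio as Dnajc11. Probes with too little supernatant signal to enter that comparison were left out of this ranking. Such probes can have higher ratios, as Ppara had at 4.03 in control. Against the 500 probes of the comparison nearest in mean level, the Dnajc11 control ratio of 2.80 was exceeded by 6 and lay at percentile 98.8. Their median was -0.14 and 10% of them lay above 1.58. The ratio of single arrays lay at percentiles 98.4, 97.6 and 98.8 in control and 93.6, 96.2 and 98.0 in Cd. Dnajc11 thus stayed on the IP side on every Cd array. Among all 23788 probes in the comparison 316 had a higher control ratio.

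The ratio difference of -0.63 lay at percentile 1.80 of the same 500 probes, with 9 of them lower, and the median of their differences was 0.04. The difference in level lay at percentile 4.20 and that in the IP signal at percentile 3.60. The supernatant difference lay at percentile 55.0, in the middle of like probes. Over all probes of the ratio comparison 844 had a lower ratio difference than Dnajc11. Since the gene was taken for these values, the percentiles describe it and are no test.

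**Figure D5:**
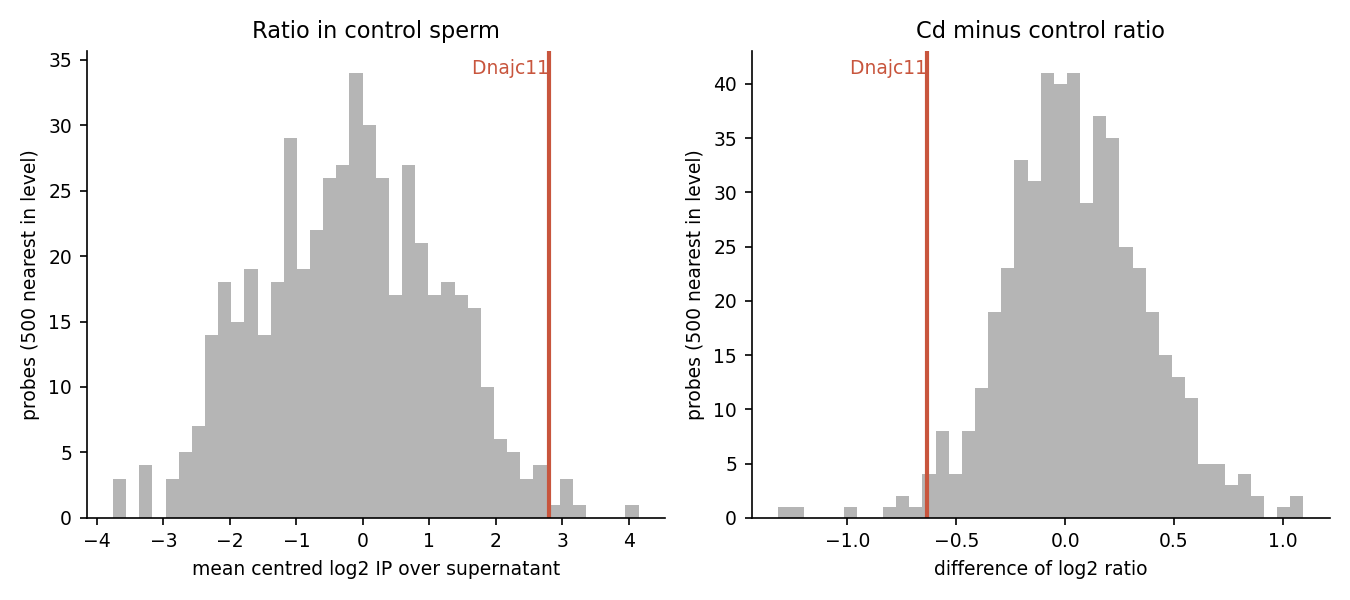
Histograms of the mean centred log2 IP over supernatant ratio in control sperm (left) and of the Cd minus control difference of that ratio (right). They show the 500 probes of the ratio comparison nearest to Dnajc11 in mean level, and the line marks Dnajc11. Its control ratio is exceeded by 6 of the 500 probes and 9 of them have a lower difference.

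Among the 27 named genes in the ratio comparison Dnajc11 had the second highest ratio in control sperm and the fourth highest in Cd sperm. These ranks leave out named genes whose supernatant was well above background on fewer than 3 arrays. Of those, Ppara, Mbp and Chgb had higher control ratios than Dnajc11, at 4.03, 3.71 and 3.36, and the others had lower ones. Their supernatant values lay near background, so these ratios are uncertain. Among the 27, the gene above Dnajc11 in control was Bambi, a pseudoreceptor of TGF-beta signalling, at 3.13. The next below was Apoe, a lipid-carrying apolipoprotein, at 2.52. In Cd the group means of Apoe, at 2.86, and Bambi, at 3.42, both lay above Dnajc11, with differences from their control means of 0.34 (limma SE 0.29) and 0.29 (limma SE 0.30). The third gene above it was Gpi1, a glycolytic isomerase, with a ratio of 1.43 in control and 2.20 in Cd. All of its Cd arrays lay above its control arrays, and its difference of 0.77 (limma SE 0.27) was opposite in sign to that of Dnajc11 and larger in size. Dnajc11 was the only 1 of the 27 with all Cd ratios below all control ratios, the order it was chosen for, while 3 had the reverse order. Over all probes of the comparison these orders were held by 5.15% and 4.90%, so a count of 1 of 27 is near the background. In level, 9 of 36 named genes had their Cd arrays below their control arrays and 0 had them above, where all probes gave 8.87% and 10.6%.

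The ratio pattern of H2-M2, an MHC class I gene, was the most like that of Dnajc11, with Pearson r = 0.93 over the 6 arrays. H2-Q7, of the same family, followed with r = 0.77, and Nup50, a nuclear pore protein, with r = 0.59. For H2-M2 the ratio was 1.01, 1.45 and 1.18 in control and 0.71, 1.01 and 1.10 in Cd. Its groups overlapped, and its difference of -0.27 was smaller than that of Dnajc11. For H2-Q7 the likeness rested on Cd replicate 1, at 0.33, since its other arrays lay between 1.15 and 1.22. The array means of Dnajc11 differ by group, and a gene that differs between the groups or scans in the same direction scores high on this measure.

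In level the genes most like Dnajc11 were Tm9sf1 with r = 0.90, Chgb, a secretory granule protein, with r = 0.90, and Alkbh4, an AlkB-family dioxygenase, with r = 0.87, over the same 6 arrays. They differed from Dnajc11 by channel. The scaled supernatant signal of Tm9sf1 differed by -0.55 between Cd and control, against 0.03 for Dnajc11, and its ratio by 0.32. Chgb was well above background in the supernatant on 0 arrays and Alkbh4 on 1, so their levels rest on the IP signal. In the IP channel Chgb was well above background on all 3 control arrays but on 1 of the 3 Cd arrays. On the other 2 Cd arrays its level holds no detected signal in either channel, and its r is computed in part from background values. Of the 27 named genes in the ratio comparison, 4 had all Cd arrays below all control arrays in the scaled IP signal: Dnajc11, H2-Q7, Carhsp1 and Gamt. Over all 23788 probes of that comparison 8.68% had this order. For H2-Q7 the IP difference was -0.49 with a supernatant difference of -0.20, and for Gamt, the enzyme of the last step of creatine synthesis, they were -0.29 and -0.48.

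Of 18 listed genes of mitochondrial proteins or their neighbours, 2 had a named probe, and neither showed the pattern of Dnajc11. The ratio of Acaa2, which makes a thiolase of mitochondrial beta-oxidation, was 1.03, 1.38 and 1.28 in control and 1.84, 1.64 and 1.51 in Cd. All of its Cd arrays lay above its control arrays, where 4.90% of probes had that order. Its scaled IP signal differed by -0.004 and its supernatant by -0.40. The ratio of Pex11a, a peroxisomal membrane protein, was 2.06, 2.14 and 2.05 in control and 1.86, 2.29 and 1.92 in Cd. The groups overlapped, with a difference of -0.06 (limma SE 0.24). Cpt1a, the carnitine palmitoyltransferase of the mitochondrial outer membrane, was not on the list and is named after its values were seen. It differed by -0.09 (limma SE 0.28) in the ratio, -0.39 (limma SE 0.35) in the level and -0.44 (limma SE 0.38) in the IP signal, with overlapping groups in each.

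Markers of the cells in the samples were few. Of 16 listed sperm and spermatid genes 3 had a named probe, and 2 of these, Hyal3 and Cep41, entered the level comparison. Of 9 epididymal and 6 somatic testis genes 0 had a named probe, and 1 of 6 leukocyte genes had one, Il2, which was well above background on 0 arrays. Of 3 nerve and melanocyte genes, Mbp and Chgb entered the level comparison and Tyr was well above background on 0 arrays, as was Spats1 of the sperm list. The level of Mbp, of myelin, differed by -3.00 (limma SE 0.80) and that of Chgb by -1.83 (limma SE 0.48), each with all Cd arrays below all control arrays and each a larger drop than that of Dnajc11. In the IP channel Mbp was well above background on 3 control and 2 Cd arrays. The log2 of the summed scaled level of the 3 nerve and melanocyte probes was 0.06 to 1.86 in control and -2.47 to -0.48 in Cd. The sum thus moved in the same direction as Dnajc11, but it includes undetected signals. In control Mbp is its largest part, followed by Chgb. Scaled background values moved too. Of the listed probes well above background on 0 arrays, Tyr and Spats1 differed in level by -0.80 and -0.87, and Il2 by 0.06. The part of background values in this drop was not tested. The same sum for the 3 sperm probes was 1.21 to 1.56 in control and 1.11 to 1.54 in Cd, which overlap. That sum is mostly Cep41, and the sperm probes differed from each other. The level of Cep41 differed by 0.02 (limma SE 0.25) and that of Hyal3 by -0.45 (limma SE 0.21). The IP signal differed by 0.02 for Cep41 and by -0.53 (limma SE 0.29) for Hyal3. The groups overlapped in each. The sperm label could therefore be checked only in part, and the part of other cells in the Dnajc11 values was not tested.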

How the data were processed

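Each array's deposited table, written by Agilent Feature Extraction 11.0.1.1, gives the intensity of every spot in both channels and a log10 ratio. Per the file headers the processed intensity was background-subtracted and dye-normalized by a linear factor and a lowess term. The deposited log10 ratio equalled that of the processed intensities at the Dnajc11 spots. The authors' log2 series table holds no row for this probe and was not used.

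Outlier-flagged spots were left out and log2 values averaged over spots. Ratios were centred on the array median, and levels and channel signals on the array's 75th percentile. Probes entered the ratio comparison when well above background in both channels, and the others when so in 1 channel, on at least 3 arrays. Differences and SEs come from limma 3.58.1 (R 4.3.3) fitted over all these probes, with Benjamini-Hochberg adjustment, checked on simulated data. Probes were named through RefSeq accessions (GRCm38.p6, 45 of 50 matched). Like genes are the 3 named ones with the highest Pearson r per measure. The number of arrays limits the precision. The gene, its measures and all gene lists were chosen with earlier results of these data known. Figures used matplotlib 3.10.9. Replicate numbers gave no clear sign of a pairing of the arrays.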

Additional observations from a re-analysis of the deposited data

How the results depend on the processing

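Some alternatives moved the Dnajc11 values by more than the SD between arrays. With normexp and an offset of 50 the Cd minus control difference became -0.18 for the ratio, -0.16 for the level and -0.22 for the IP signal, and the control ratio became 1.14. Background-subtracted signals without dye normalization gave -0.21 for the level and -0.46 for the IP signal. No scaling between arrays gave -0.27 for the level, -0.36 for the IP signal and 0.27 for the supernatant. Centring on spike-in probes gave a control ratio of 2.21. The normexp offset shrinks dim differences by construction, but that setting also changed the dye normalization. The part of each step, and the cause for the other alternatives, was not tested. Scaling to 22 catalogue probes kept the sizes (-0.52 for the level and -0.58 for the IP signal) but the groups overlapped. The percentile of the ratio difference was 3.50 among 200 and 1.70 among 1000 like probes, and 5.40 with supernatant signal as the measure of likeness.

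Leaving out the arrays 1 at a time, the ratio difference ranged from -0.75 to -0.45, the level from -0.55 to -0.45, the IP signal from -0.69 to -0.55, the supernatant from -0.08 to 0.16 and the control ratio from 2.69 to 2.91. Without both control replicate 1 and Cd replicate 3 the ratio difference was -0.83. That exclusion, the signals without dye normalization and the absence of scaling were added after seeing the data. The count of 1 probe called by limma for the ratio became 0 with the filter on all 6 arrays, with the replicate block and without both arrays, and with 1 array left out it was between 0 and 1. With the filter on all 6 arrays 390 were higher and 357 lower at an unadjusted p under 0.05, and with the block 529 and 437. The level had 0 calls in these fits, with 1885 higher and 1244 lower at an unadjusted p under 0.05.

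Replicate numbers gave no clear sign of a pairing of the arrays. Deviations of arrays with the same number had correlations of -0.07, -0.05 and -0.12 for the ratio and of -0.41, 0.43 and 0.00 for the level. Arrays of unlike number were not compared, so a pairing is not excluded. With the replicate block the differences were the same, -0.63 for the ratio, -0.50 for the level, -0.63 for the IP signal and 0.03 for the supernatant, with SEs of 0.29, 0.22, 0.29 and 0.25. The authors' series table holds no row for the Dnajc11 probe used here, so that alternative was not run.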
